A study of Mus musculus with 4 samples.

Results

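Chemokine ligands and their receptors were followed in scraped intestinal epithelium of mice with the G181R or the wild-type form of D-amino acid oxidase (DAO), the enzyme that breaks down D-amino acids. The genes were taken by name alone: every array probe for a Ccl, Cxcl, Ccr or Cxcr gene with a number, or for Xcl1, Xcr1, Cx3cl1 or Cx3cr1. This gave 76 of the 56605 probes and 55 of the 37074 gene names on the array, of which 36 were ligands and 19 receptors. The 4 groups were ileum of DAO G181R/G181R mice, ileum of DAO wt/wt mice, jejunum of DAO G181R/G181R mice and jejunum of DAO wt/wt mice. G181R is an amino acid change known to abolish most DAO activity. All mice, also those with wild-type DAO, were C57BL/6J, aged 9 weeks, and Tcrbd-/-, so none could form the T cell receptors that T cells need to mature. RNA of 5 mice was pooled for each group and hybridised to 1 array. There is therefore no spread between animals or replicates and no test. Differences are described by size, beside the share of all genes that differed as much, and precision is limited by how few arrays there are.

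Chemokines are small secreted proteins that draw leukocytes along a gradient by binding receptors coupled to G proteins. In the intestine, epithelial cells release CXC ligands of CXCR2 that recruit neutrophils, interferon-induced ligands of CXCR3 that recruit lymphocytes, and CCL25, CCL28 and CCL20, which bring lymphocytes, antibody-secreting cells and the cells of lymphoid follicles to the mucosa. CCL19, CCL21 and CXCL13 organise the lymphoid follicles of the gut wall by attracting cells with CCR7 and CXCR5.

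The arrays were alike in their overall yield: between 57.4% and 60.4% of the probes gave a signal well above background, and no spot was saturated. All 14 enterocyte markers were well above background on every array, and the tissue labels matched their markers: Fabp6, the bile acid carrier of ileal enterocytes, had a signal of 162699 and 179372 in G181R and wild-type ileum, against 17.0 and 11.2 in G181R and wild-type jejunum. The Dao signal was 145 in G181R and 157 in wild-type ileum, and 1239 in G181R and 1309 in wild-type jejunum. Its RNA level does not check the genotype, since G181R changes the protein. RNA of other cell types was also present. The smooth muscle list differed between the ileal arrays: 8 of its 11 measured genes were at least 2-fold lower in G181R, against 3.21% of all genes. The median log2 difference of the list was -2.51. Its summed signal, on the scale of each array's 75th percentile, was 52.8 in G181R and 121 in wild-type ileum. The part of that difference in the results that follow was not tested. In such tissue RNA, fewer cells of a type and less RNA per cell cannot be told apart.

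Of the 55 genes, 27 were well above background on all 4 arrays, 4 on 3 arrays, 8 on 2 arrays and 6 on 1 array. The other 10 were seen on none: Ccl7, Ccl12, Ccl22, Ccl26, Ccr1, Ccr1l1, Cxcl15, Cxcl17, Cxcr1 and Xcr1. More of these genes were seen in mutant than in wild-type tissue. In ileum, 40 were well above background in G181R and 28 in wild-type, or 72.7% and 50.9% of the 55. In jejunum the counts were 39 in G181R and 35 in wild-type, or 70.9% and 63.6%. Over all genes on the array the shares were 60.8% in G181R and 59.8% in wild-type ileum. In jejunum they were 61.1% in G181R and 58.4% in wild-type. The mutant array thus saw more of all genes in each tissue as well.

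**Figure D1:**
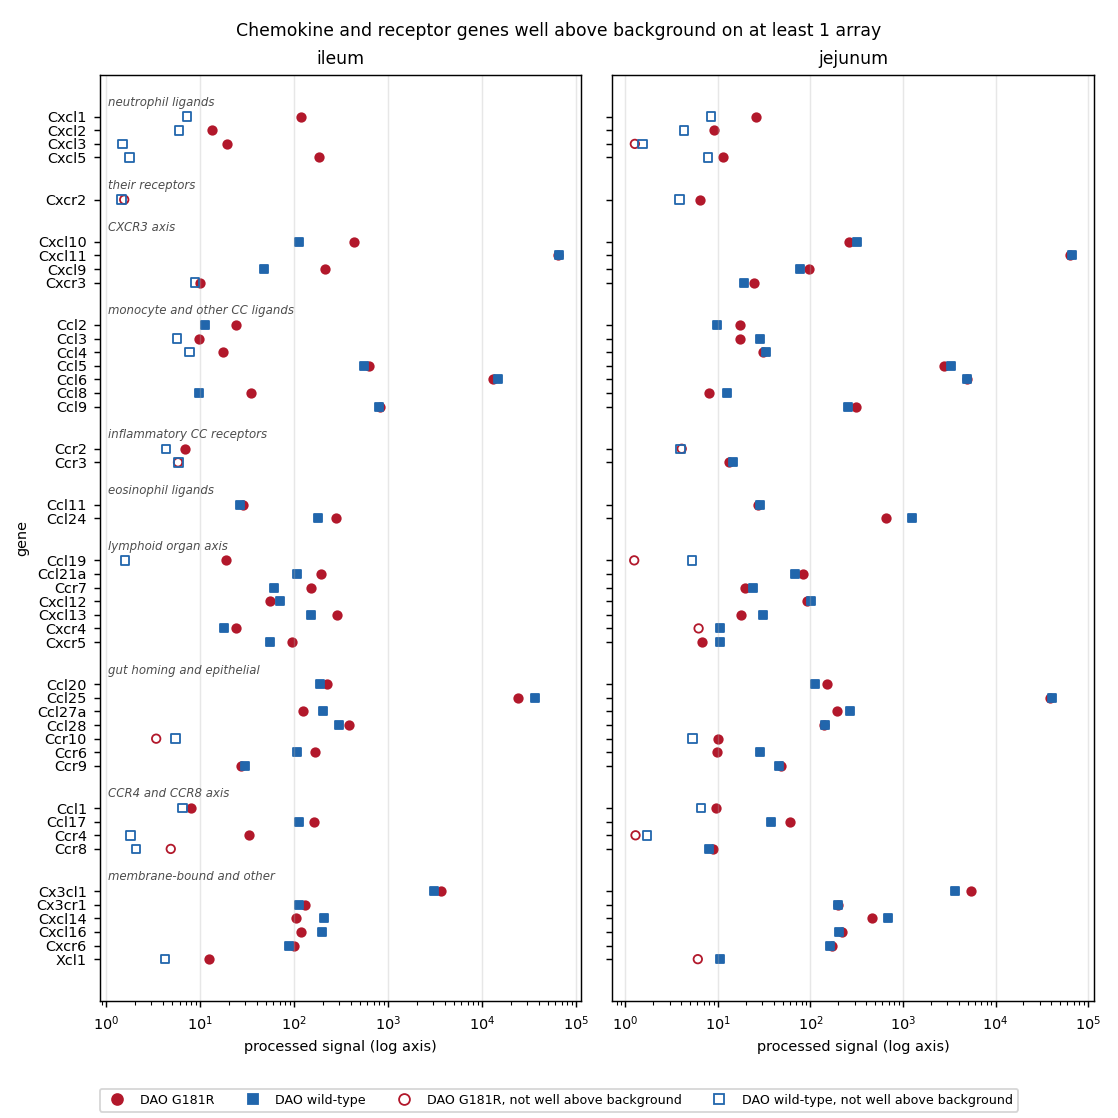
Processed signal (log axis) of 44 chemokine and receptor genes that were well above background on at least 1 array, grouped by role, with ileum on the left and jejunum on the right. Circles are DAO G181R and squares are DAO wild-type, 1 array each, and open symbols were not well above background. In ileum the neutrophil ligands lie to the right in G181R and are open squares in wild-type.

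In ileum, 28 of the 55 genes were measured, that is well above background on both arrays. Of these, 6 were at least 2-fold higher in G181R than in wild-type: the CXCR3 ligands Cxcl9 and Cxcl10, the inflammatory CC ligands Ccl2 and Ccl8, the follicle chemokine Cxcl13 and the receptor Ccr7. They made 21.4% of the measured chemokine and receptor genes, where 2.01% of all 21477 genes measured on both arrays were 2-fold higher. None was 2-fold lower, against 3.21% of all genes. Counting differences of any size, 21 were higher and 7 lower, and the median log2 difference was 0.32, against 0.026 over all genes. By its brightest probe, a further 12 genes were seen in G181R ileum only and none in wild-type ileum only (for 1 of the 12, Ccl4, a dimmer probe was seen in both), while over all genes 1050 were seen in G181R only and 706 in wild-type only. For 5 of the 12 (Cxcl1, Cxcl3, Cxcl5, Ccl19 and Ccr4) the difference was at least 2-fold even against the detection limit of the wild-type array. Such a bound was reached by 13.0% of the 1050 genes. The remaining 15 were seen on neither ileal array. Ligands were 36 of the 55 genes and 21 of the 28 measured in ileum, and they held 5 of the 6 measured differences and 4 of the 5 bounds.

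**Figure D2:**
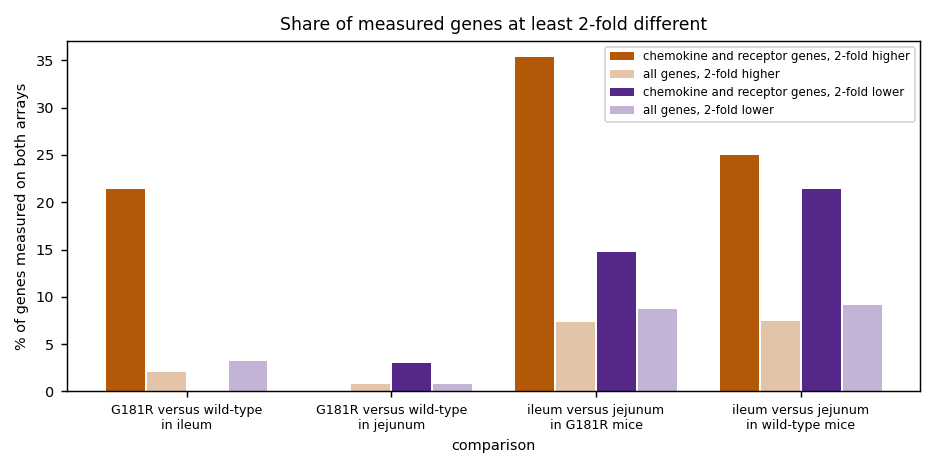
Percentage of genes measured on both arrays that were at least 2-fold higher (brown) or lower (purple), for chemokine and receptor genes (solid bars) and for all genes (pale bars), in each of the 4 comparisons. In ileum, 21.4% of the chemokine and receptor genes were higher in G181R against 2.01% of all genes, and none was lower.

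The widest ileal bounds were those of neutrophil ligands. Cxcl1, Cxcl2, Cxcl3 and Cxcl5 encode ligands of CXCR2, the receptor through which neutrophils enter inflamed mucosa. All 4 were well above background in G181R ileum and none was in wild-type ileum. Cxcl5, which mouse epithelial cells are known to make, had a signal of 182 in G181R ileum, 1.77 in wild-type ileum, 11.2 in G181R jejunum and 7.81 in wild-type jejunum, where neither wild-type value was well above background. The ileal difference was at least 26.6-fold. Cxcl1 had a signal of 119 in G181R ileum, 7.25 in wild-type ileum, 25.9 in G181R jejunum and 8.39 in wild-type jejunum, again seen in the mutant arrays only. It was at least 17.3-fold higher in G181R ileum and at least 3.02-fold higher in G181R jejunum.

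Cxcl3 and Cxcl2 were dimmer. The signal of Cxcl3 was 19.4 in G181R ileum, against 1.48 in wild-type ileum, 1.26 in G181R jejunum and 1.53 in wild-type jejunum. It was well above background in G181R ileum alone, and the ileal difference was at least 2.84-fold. Cxcl2 gave 13.4 in G181R ileum, 5.89 in wild-type ileum, 8.98 in G181R jejunum and 4.28 in wild-type jejunum, and its bounds were at least 1.96-fold in ileum and at least 1.19-fold in jejunum. So 3 of these ligands were seen in both mutant tissues, and Cxcl3 in ileum alone. In jejunum the bound of Cxcl5 was only 1.40-fold. Detection also differed over the whole array there: of all genes seen on 1 jejunal array only, 77.1% were seen in G181R. The lowest signal called well above background was 5.83 in G181R and 7.36 in wild-type jejunum. Cxcl15, a ligand of the lung, was seen on no array.

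The receptors of these ligands were not seen with them in ileum. Cxcr2 was below detection in both ileal arrays, with a signal of 1.55 in G181R and 1.45 in wild-type, and was just seen in G181R jejunum, with 6.42 against 3.83 in wild-type jejunum, while Cxcr1 was seen nowhere. Neutrophil markers were mixed. Of 13 markers, 8 were measured in ileum, with a median log2 difference of 0.19. At least 2-fold higher in G181R were 2 of them (against 2.01% of all genes), Ly6g and Ltf, each by 1.86 on the log2 scale. The calprotectin genes S100a8 and S100a9 were seen in G181R ileum only, at least 3.58-fold and at least 14.2-fold higher. Csf3r, Mpo and Elane differed by 0.08, -0.06 and -0.03, and Ngp and Mmp8 were not well above background in either ileal array. Unlike Cxcr2, Csf3r was bright on every array. Its signal was 16746 in G181R ileum, 16761 in wild-type ileum, 19855 in G181R jejunum and 18449 in wild-type jejunum. Which cells gave it was not tested. The summed signal of the 13 markers, on the scale of each array's 75th percentile, was 99.6 in G181R and 92.5 in wild-type ileum. Csf3r made nearly all of it, and without Csf3r the sum was 3.93 in G181R and 1.77 in wild-type ileum. The part of these cells in the ligand signal was not tested.

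The promoters of 5 inducible CXC ligands are shown, because NF-kB and interferon-activated factors are known to act on such genes: the CXCR2 ligands Cxcl1, Cxcl2 and Cxcl3 and the CXCR3 ligands Cxcl9 and Cxcl10. Cxcl5 is named only. The window of Cxcl13, not shown, held none of the motifs searched. The windows reach from 250 bases before to 50 bases after the start of the RefSeq gene (GRCm38.p6) and are written 5′ to 3′ in the direction of the gene, with 3 motifs in capitals wherever a search of both strands found their letters. These were kappaB (GGG, any 3 bases, TTCC), the interferon-stimulated response element (GAAA, any 2 bases, GAAA) and the gamma-activated site (TTC, any 3 bases, GAA).
Cxcl1 (chr5:90890995-90891294, plus strand): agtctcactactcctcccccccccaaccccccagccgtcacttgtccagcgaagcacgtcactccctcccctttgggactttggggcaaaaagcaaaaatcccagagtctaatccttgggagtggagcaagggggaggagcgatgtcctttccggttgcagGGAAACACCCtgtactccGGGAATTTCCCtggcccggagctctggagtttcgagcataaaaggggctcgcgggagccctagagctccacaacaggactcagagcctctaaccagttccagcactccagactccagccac
Cxcl2 (chr5:90903649-90903948, plus strand): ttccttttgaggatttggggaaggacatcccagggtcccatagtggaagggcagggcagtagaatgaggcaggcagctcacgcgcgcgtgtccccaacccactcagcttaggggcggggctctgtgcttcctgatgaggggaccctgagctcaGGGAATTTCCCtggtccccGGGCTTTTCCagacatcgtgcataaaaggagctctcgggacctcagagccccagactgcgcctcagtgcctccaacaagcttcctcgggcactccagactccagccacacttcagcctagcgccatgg
Cxcl3 (chr5:90785851-90786150, plus strand): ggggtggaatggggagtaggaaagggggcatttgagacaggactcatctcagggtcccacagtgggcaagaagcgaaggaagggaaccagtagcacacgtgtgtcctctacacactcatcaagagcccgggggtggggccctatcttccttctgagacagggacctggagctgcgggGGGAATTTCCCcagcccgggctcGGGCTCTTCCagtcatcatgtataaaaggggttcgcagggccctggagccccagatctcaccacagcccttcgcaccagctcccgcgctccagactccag
Cxcl9 (chr5:92328030-92328329, minus strand): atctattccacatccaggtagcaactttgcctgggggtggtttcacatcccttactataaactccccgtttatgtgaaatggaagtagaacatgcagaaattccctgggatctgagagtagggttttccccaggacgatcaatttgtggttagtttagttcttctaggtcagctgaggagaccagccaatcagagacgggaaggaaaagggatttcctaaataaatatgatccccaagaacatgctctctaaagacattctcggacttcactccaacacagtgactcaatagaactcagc
Cxcl10 (chr5:92348840-92349139, minus strand): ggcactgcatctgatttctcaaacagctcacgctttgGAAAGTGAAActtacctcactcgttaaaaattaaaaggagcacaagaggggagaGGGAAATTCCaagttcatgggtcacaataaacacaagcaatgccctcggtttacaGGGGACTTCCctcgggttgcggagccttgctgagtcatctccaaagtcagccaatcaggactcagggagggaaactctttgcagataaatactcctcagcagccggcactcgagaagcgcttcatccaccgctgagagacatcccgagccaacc

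The Cxcl1, Cxcl2 and Cxcl3 windows each held the kappaB letters 3 times, within 97 bases before the start, and in each of them 2 of the 3 matches were the same stretch read on opposite strands. That stretch, GGGAATTTCCC, was common to the 3 windows and was found in 14 of all 32851 RefSeq windows, or 0.0426%. These 3 genes are close relatives in 1 cluster, so their promoters are not independent. Cxcl10 held the kappaB letters 159 and 104 bases before the start and the interferon-stimulated response element 213 bases before it. The Cxcl9 window held none of the 3. The kappaB letters stood in 5.56% of all windows and in 9 of the 44 windows that matched 40 of the 55 genes. The interferon-stimulated response element was in 3.44% of all windows and 3 of the 44, and the gamma-activated site in 8.3% of all and 4 of the 44. A match describes the letters only.

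**Figure D3:**
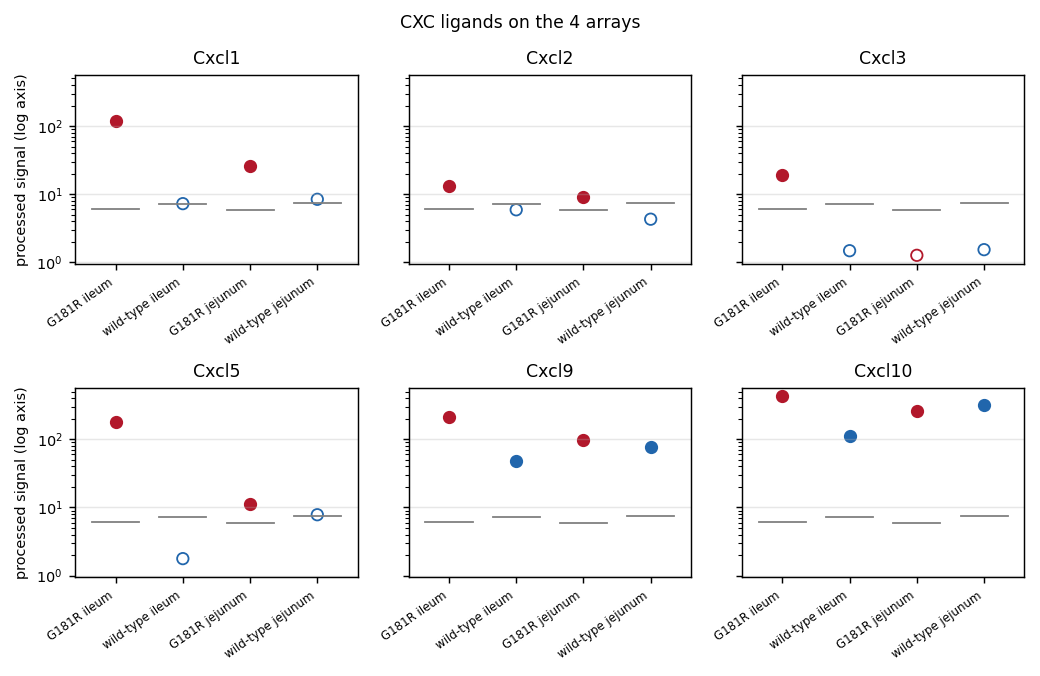
Processed signal (log axis) of 6 CXC ligands on each array, with G181R in red and wild-type in blue. Open circles were not well above background, and grey lines mark the lowest signal that was well above background on that array. Cxcl1, Cxcl2 and Cxcl5 are filled in both mutant tissues and open in both wild-type tissues, whereas Cxcl9 and Cxcl10 are filled on all 4 arrays and separate the genotypes in ileum.

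The ligands of CXCR3, which interferons induce, were seen on all arrays. Cxcl9 had a signal of 211 in G181R ileum, 47.5 in wild-type ileum, 97.4 in G181R jejunum and 77.4 in wild-type jejunum. It was 4.70-fold higher in G181R ileum (log2 2.23), while the jejunal difference was 0.30. For Cxcl10 the signals were 426 in G181R ileum, 113 in wild-type ileum, 259 in G181R jejunum and 316 in wild-type jejunum, or 3.97-fold higher in G181R ileum (log2 1.99) and -0.32 in jejunum. Both passed 2-fold in ileum and neither did in jejunum, and wild-type ileum was the lowest of the 4 arrays for each.

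Cxcl11, the other CXCR3 ligand, gave 63390 in G181R ileum, 66068 in wild-type ileum, 63111 in G181R jejunum and 67033 in wild-type jejunum, with log2 differences between genotypes of 0.02 in ileum and -0.12 in jejunum. The accession of this very bright probe did not match the RefSeq table, so its identity rests on the name in the files. A second probe, with signals of 1926 in G181R ileum, 2100 in wild-type ileum, 2233 in G181R jejunum and 2106 in wild-type jejunum, differed by -0.05 in ileum and 0.05 in jejunum. C57BL/6 mice are known to carry a frameshift in Cxcl11, so its RNA does not give the full protein. The receptor Cxcr3, found on activated lymphocytes and NK cells, was near the detection limit in ileum, with 9.91 in G181R and 8.74 in wild-type, where it was not well above background. Its signals were 24.4 in G181R jejunum and 19.3 in wild-type jejunum, a log2 difference of 0.31. The list of 16 markers of T, innate lymphoid and NK cells on the array had a median log2 difference of -0.14 in ileum and -0.39 in jejunum, and a summed signal of 30.2 in G181R and 36.0 in wild-type ileum. Its Ifng, the gene of interferon gamma, was seen in G181R ileum only, and the bound was at least 1.81-fold.

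Among the monocyte and other inflammatory CC ligands, Ccl2 and Ccl8 were at least 2-fold higher in G181R ileum. Ccl8 had a signal of 34.7 in G181R ileum, 9.62 in wild-type ileum, 7.91 in G181R jejunum and 12.4 in wild-type jejunum, or 3.80-fold higher in G181R ileum (log2 1.93) and -0.68 in jejunum. Ccl2 gave 23.9 in G181R ileum, 11.2 in wild-type ileum, 17.5 in G181R jejunum and 9.71 in wild-type jejunum. Its log2 differences were 1.17 in ileum and 0.82 in jejunum, so that the mutant was higher in both tissues. These signals are low: spots of 1 probe printed several times gave a median SD of 0.19 for a log2 difference in ileum where the dimmer array was under 20 (3 probes), against 0.0425 over 100.

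Ccl3 and Ccl4, which are inflammatory products of macrophages and lymphocytes, lay near the detection limit in ileum. Ccl3 had 9.65 in G181R ileum, 5.65 in wild-type ileum (not well above background), 17.3 in G181R jejunum and 28.3 in wild-type jejunum, a bound of at least 1.42-fold higher in ileum and a log2 difference of -0.74 in jejunum. The brightest Ccl4 probe gave 17.4 in G181R ileum, 7.68 in wild-type ileum (not well above background), 30.4 in G181R jejunum and 32.8 in wild-type jejunum. No bound is given, since a second probe was above background throughout. That second probe differed by 0.64 in ileum and by -0.16 in jejunum.

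Ccl5, a product of cytotoxic lymphocytes, gave 628 in G181R ileum, 556 in wild-type ileum, 2750 in G181R jejunum and 3326 in wild-type jejunum. Ccl6 gave 13130 in G181R ileum, 14788 in wild-type ileum, 4903 in G181R jejunum and 4976 in wild-type jejunum. Ccl9 gave 809 in G181R ileum, 806 in wild-type ileum, 313 in G181R jejunum and 257 in wild-type jejunum. Between genotypes these 3 stayed within 0.31 on the log2 scale in both tissues. Their differences were between gut regions.

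The inflammatory CC receptors were dim everywhere. Ccr2, the CCL2 receptor of monocytes, had 6.91 in G181R ileum and was not well above background in wild-type ileum (4.33), G181R jejunum (4.05) or wild-type jejunum (3.92), and its ileal bound was at least 1.01-fold. Ccr3, of eosinophils, was seen in jejunum only. The macrophage and dendritic cell list was higher in G181R for 11 of its 13 measured genes in ileum, with a median log2 difference of 0.27. Its summed signal was 489 in G181R and 446 in wild-type ileum, and without Lyz2, the brightest gene of the list, 108 in G181R and 63.6 in wild-type ileum. Most of the gap without Lyz2 came from Itgam and the monocyte gene Ly6c2. In G181R and wild-type ileum, Itgam had 11119 and 7950 (log2 0.56), and Ly6c2 had 4340 and 958 (log2 2.26). Of the measured genes of the list, Ly6c2 alone passed the fold. Cd163, a gene of resident macrophages, lay the other way. It was seen in wild-type ileum only and was at least 2.42-fold lower in G181R. The part of these cells in the Ccl2 and Ccl8 signals was not tested.

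Chemokines and receptors of lymphoid follicles also differed in ileum. Cxcl13, which draws B cells into follicles, had a signal of 288 in G181R ileum, 149 in wild-type ileum, 17.8 in G181R jejunum and 30.5 in wild-type jejunum, with log2 differences of 1.03 in ileum and -0.81 in jejunum. Its receptor Cxcr5 gave 95.3 in G181R ileum, 55.4 in wild-type ileum, 6.79 in G181R jejunum and 10.6 in wild-type jejunum, or 0.86 in ileum and -0.67 in jejunum on the log2 scale. Ligand and receptor thus lay on the same side of 0 in each tissue.

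Ccr7, which guides lymphocytes and dendritic cells to lymphoid tissue, had 151 in G181R ileum, 61.3 in wild-type ileum, 19.6 in G181R jejunum and 23.8 in wild-type jejunum. It was 2.61-fold higher in G181R ileum (log2 1.38) and differed by -0.31 in jejunum. Its ligand Ccl21a gave 194 in G181R ileum, 107 in wild-type ileum, 82.6 in G181R jejunum and 68.3 in wild-type jejunum, log2 differences of 0.94 in ileum and 0.24 in jejunum. Its other ligand, Ccl19, was seen in G181R ileum only, with 18.6 there against 1.58 in wild-type ileum, 1.24 in G181R jejunum and 5.27 in wild-type jejunum, at least 2.72-fold higher in ileum. Both CCR7 ligands and the receptor were highest in G181R ileum. The Ccl19 and Ccl21a probes matched their RefSeq genes by accession. Their mapped positions lie on the plus strand, however, and the RefSeq windows on the minus strand, a mismatch that was not resolved.

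Cxcl12, a ligand of stromal cells, gave 55.1 in G181R ileum, 71.1 in wild-type ileum, 91.4 in G181R jejunum and 101 in wild-type jejunum, with log2 differences of -0.29 in ileum and -0.18 in jejunum. Its receptor Cxcr4 gave 24.2 in G181R ileum, 17.8 in wild-type ileum, 6.17 in G181R jejunum and 10.6 in wild-type jejunum. It differed by 0.52 in ileum and was not well above background in G181R jejunum, where it was at least 1.76-fold lower.

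The medians of the B cell markers lay on the same side of 0 as Cxcl13, Cxcr5 and Ccr7 in each tissue. Cxcl12 in ileum and Ccl21a in jejunum lay on the other side. Of 11 B cell markers measured in ileum, 9 were higher in G181R, none 2-fold, with a median log2 difference of 0.68. In jejunum 6 of 9 were lower in G181R, 3 of them at least 2-fold (against 0.749% of all genes), with a median of -0.65. Among them, Ms4a1, the gene of CD20, had a signal of 320 in G181R ileum, 211 in wild-type ileum, 9.67 in G181R jejunum and 37.2 in wild-type jejunum. Their part in the Cxcl13, Cxcr5 and Ccr7 differences was not tested. Endothelial and lymphatic markers had a median of -0.26 in ileum, and fibroblast and reticular markers -0.59, while Madcam1 was seen on no array.

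CCL20 and its receptor CCR6 bring B cells and dendritic cells to the follicle epithelium. Ccl20 had a signal of 224 in G181R ileum, 188 in wild-type ileum, 152 in G181R jejunum and 113 in wild-type jejunum, with log2 differences of 0.33 in ileum and 0.39 in jejunum. Ccr6 gave 166 in G181R ileum, 106 in wild-type ileum, 9.80 in G181R jejunum and 28.5 in wild-type jejunum. It was higher in G181R ileum by 0.73 and lower in G181R jejunum by a log2 difference of -1.58, or 2.98-fold. The ligand was thus higher in G181R in both tissues and the receptor in ileum only.

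CCL25 is the small-intestinal ligand of CCR9, a gut homing receptor. Ccl25 gave 24108 in G181R ileum, 36355 in wild-type ileum, 38732 in G181R jejunum and 40634 in wild-type jejunum, with log2 differences of -0.52 in ileum and -0.10 in jejunum. Of its other probes, the brighter gave -0.62 in ileum and -0.20 in jejunum, and a far dimmer one gave 0.07 in ileum and 0.30 in jejunum. Ccr9 had 26.7 in G181R ileum, 30.2 in wild-type ileum, 47.6 in G181R jejunum and 45.8 in wild-type jejunum, log2 differences of -0.10 in ileum and 0.02 in jejunum. Receptor and ligand thus differed little between genotypes. Ccl28, a ligand of CCR10 that attracts IgA-secreting cells, had 381 in G181R ileum, 297 in wild-type ileum, 141 in G181R jejunum and 144 in wild-type jejunum, or 0.44 in ileum and -0.07 in jejunum on the log2 scale. Ccr10 itself was seen in G181R jejunum only, where its signal was 9.90, against 5.30 in wild-type jejunum. In ileum it was 3.39 in G181R and 5.43 in wild-type. Ccl27a, which shares CCR10, was lower in G181R in both tissues, with signals of 124 in G181R ileum, 203 in wild-type ileum, 193 in G181R jejunum and 270 in wild-type jejunum and log2 differences of -0.63 in ileum and -0.51 in jejunum. None of these epithelial ligands reached a 2-fold difference.

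Ccr4, a receptor of skin-homing and type 2 lymphocytes, was seen in G181R ileum only. Its signal was 32.6 there, against 1.81 in wild-type ileum, 1.28 in G181R jejunum and 1.71 in wild-type jejunum, at least 4.78-fold higher in G181R ileum. A second Ccr4 probe was also above background on that array alone, with 7.32. Its ligand Ccl17 had 163 in G181R ileum, 113 in wild-type ileum, 59.7 in G181R jejunum and 37.8 in wild-type jejunum, with log2 differences of 0.61 in ileum and 0.62 in jejunum, while the other ligand, Ccl22, was seen on no array. Ccl1 was seen in both mutant tissues and neither wild-type tissue, with bounds of at least 1.16-fold in ileum and at least 1.26-fold in jejunum. Its receptor Ccr8 was seen in jejunum only and differed there by 0.12.

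Of the eosinophil ligands, Ccl24 had a signal of 275 in G181R ileum, 178 in wild-type ileum, 648 in G181R jejunum and 1241 in wild-type jejunum, with log2 differences of 0.70 in ileum and -0.97 in jejunum. Ccl11 gave 28.6 in G181R ileum, 26.2 in wild-type ileum, 27.0 in G181R jejunum and 28.1 in wild-type jejunum, within 0.20 on the log2 scale between genotypes. Of 5 eosinophil markers on the array, Siglecf, Ear1 and Il5ra were well above background on every array, with a median log2 difference of -0.27 in ileum and -0.04 in jejunum. In G181R ileum, Siglecf (-0.91) and Ear1 (-0.27) were lower and Il5ra (0.71) was higher. Epx was seen on no array.

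The ligands Cx3cl1 and Cxcl16 are made as membrane proteins. Neither they nor their receptors, Cx3cr1 of macrophages and Cxcr6 of innate lymphocytes, were 2-fold different between genotypes, and over these 4 genes and Cxcl14 the log2 differences ran from -0.90 to 0.31 in ileum and from -0.59 to 0.52 in jejunum. Cx3cl1 gave 3629 in G181R ileum, 3094 in wild-type ileum, 5374 in G181R jejunum and 3660 in wild-type jejunum. Cxcl14, a ligand of epithelium, had the lowest log2 difference of the measured genes in ileum, -0.90, with signals of 104 in G181R ileum, 205 in wild-type ileum, 465 in G181R jejunum and 684 in wild-type jejunum. The 2 probes of Cxcl16 differed in ileum by -0.67 and -1.38, so that the dimmer probe passed the fold. Xcl1, which attracts dendritic cells with XCR1, was seen in G181R ileum and wild-type jejunum only, and its bounds were under 2-fold.

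In jejunum the genotypes were closer. Of 33 measured genes none was 2-fold higher in G181R, where 0.763% of all measured genes were, and 1, Ccr6, was 2-fold lower (3.03%, against 0.749% of all). The median log2 difference was -0.10, against -0.01 over all genes, with 12 genes higher and 21 lower. Besides Cxcl1, no gene had a bound of 2-fold or more, whereas 6.65% of all genes seen in G181R jejunum only and 39.2% of those seen in wild-type jejunum only had one. Seen in G181R jejunum only were Ccl1, Ccr10, Cxcl1, Cxcl2, Cxcl5 and Cxcr2, and seen in wild-type jejunum only were Cxcr4 and Xcl1. That is 6 of 8 on the mutant side, against 77.1% of all genes seen on 1 jejunal array only. The 2 genotype comparisons use different arrays. Of the 27 genes measured in both, 8 were higher in G181R in both tissues and 5 lower in both. The same count was not made over all genes.

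**Figure D4:**
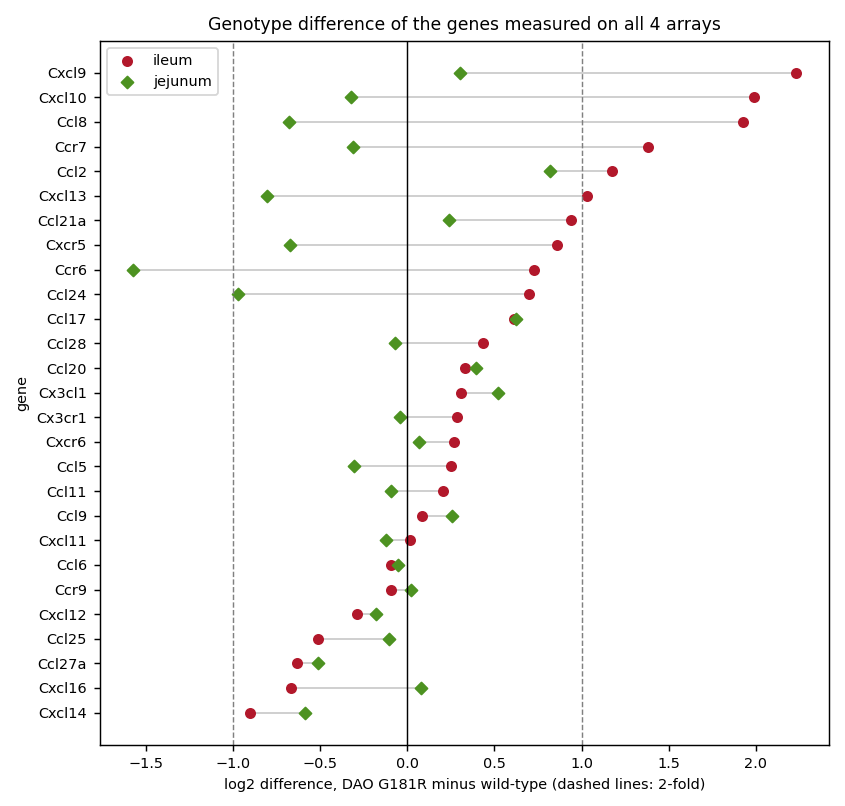
Log2 difference of DAO G181R minus wild-type in ileum (red circles) and jejunum (green diamonds) for the 27 chemokine and receptor genes measured on all 4 arrays, ordered by the ileal value. Dashed lines mark 2-fold. Cxcl9, Cxcl10, Ccl8, Ccr7, Ccl2 and Cxcl13 lie past 2-fold in ileum and none of them does in jejunum, where Ccr6 alone lies past it at -1.58.

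How the background is handled matters for the dim genes. With the normexp correction, which pulls low signals together, Cxcl9 (1.48) and Cxcl10 (1.55) stayed past 2-fold in ileum, whereas Ccl8 (0.49), Ccl2 (0.35), Ccr7 (0.87) and Cxcl13 (0.80) kept their direction below it, and Ccr6 in jejunum came to -0.43. The genes with bounds had log2 differences of 1.98 for Cxcl5, 1.5 for Cxcl1, 0.63 for Ccr4, 0.46 for Cxcl3 and 0.41 for Ccl19 in ileum under that correction. In jejunum, Cxcl1 came to 0.34, Cxcl5 to 0.07 and Cxcl2 to 0.05.

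The second question of the design is how ileum differed from jejunum within each genotype. These comparisons use the same arrays as the genotype comparisons. In G181R mice, 34 genes were measured, of which 12 were higher in ileum by 2-fold or more (35.3%, against 7.29% of all genes) and 5 lower (14.7%, against 8.73%). In wild-type mice, 7 of 28 were higher (25.0%, against 7.4%) and 6 lower (21.4%, against 9.12%). The 7 genes higher in ileum of wild-type mice were also among the 12 of G181R mice: Ccr6, Ccr7, Cxcl13, Cxcr5, Ccl17, Ccl6 and Ccl9. The genes lower in ileum in both genotypes were Ccl5, Ccl24 and Cxcl14. How far the genotypes overlapped over all genes was not counted.

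The follicle genes Ccr6, Cxcl13, Cxcr5 and Ccr7 were higher in ileum in both genotypes. Ccr6 was higher in ileum by a log2 difference of 3.95 in G181R and 1.65 in wild-type mice, Cxcl13 by 3.88 in G181R and 2.04 in wild-type mice, Cxcr5 by 3.68 in G181R and 2.14 in wild-type mice, and Ccr7 by 2.82 in G181R and 1.12 in wild-type mice. B cell markers lay the same way: 7 of the 10 that were measured passed 2-fold towards ileum in each genotype. Over all genes the shares were 7.29% in G181R and 7.4% in wild-type mice. The marker medians were 2.46 in G181R and 1.43 in wild-type mice, and the part of B cells in this was not tested. Ccl6 (1.29 in G181R and 1.33 in wild-type mice), Ccl9 (1.24 in G181R and 1.41 in wild-type) and Ccl17 (1.32 in G181R and 1.33 in wild-type) differed by nearly equal amounts in both genotypes. Of the genes higher in both, normexp took Ccl17 below 2-fold in G181R (0.83) and wild-type mice (0.67), and Ccr6 (0.79), Cxcr5 (0.62) and Ccr7 (0.42) in wild-type mice.

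The remaining genes past 2-fold towards ileum in G181R mice were Cxcl5 (3.88), Cxcl1 (2.06), Ccl8 (2.0), Ccl28 (1.30) and Ccl21a (1.1). Cxcl1 and Cxcl5 were not seen in either wild-type tissue and so could not be counted there. Ccl28 was also higher in wild-type ileum by 0.80 and Ccl21a by 0.40, and Ccl8 lay at -0.61 in wild-type mice. With normexp, Ccl8 (0.36), Ccl21a (0.76) and Cxcl1 (0.99) fell below 2-fold in G181R mice, and with the mean of its probes Ccl28 did. In G181R mice there were also bounds of at least 2-fold for Ccr4 (at least 5.10-fold), Cxcr4 (at least 3.57-fold), Cxcl3 (at least 3.03-fold) and Ccl19 (at least 2.90-fold), a size that 28.9% of all genes seen in ileum only reached.

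The ligands Ccl5, Ccl24 and Cxcl14 were lower in ileum. Ccl5 differed by -2.26 in G181R and -2.82 in wild-type mice, Ccl24 by -1.37 in G181R and -3.04 in wild-type mice, and Cxcl14 by -2.30 in G181R and -1.98 in wild-type mice. Cxcr3 was lower by -1.43 in G181R mice and at least 2.61-fold lower in wild-type mice, and Cxcr6 differed by -0.93 in G181R and -1.13 in wild-type mice. The T, innate lymphoid and NK cell markers were also lower in ileum, with medians of -0.80 in G181R and -1.06 in wild-type mice, and Gzma, the granzyme A gene of cytotoxic lymphocytes, by -2.37 in G181R and -2.71 in wild-type mice. Their part in this was not tested. Cxcl10 differed by 0.59 in G181R mice and was lower in ileum in wild-type mice (-1.72), and Cx3cr1 (-0.73 in G181R, -1.06 in wild-type) and Cxcl16 (-1.06 in G181R, -0.31 in wild-type) passed the fold in 1 genotype each. With normexp, Cxcr3 (-0.35) and Cxcl16 (-0.78) in G181R mice and Cxcr6 (-0.72) and Cx3cr1 (-0.78) in wild-type mice did not reach it. Ccr3 was seen in jejunum only and was at least 2.35-fold lower in G181R ileum and at least 2.36-fold lower in wild-type ileum. For Ccl3 the bound was at least 4.65-fold lower in wild-type ileum. Among all genes seen in jejunum only, 33.4% in G181R and 46.0% in wild-type mice had a bound of 2-fold lower.

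**Figure D5:**
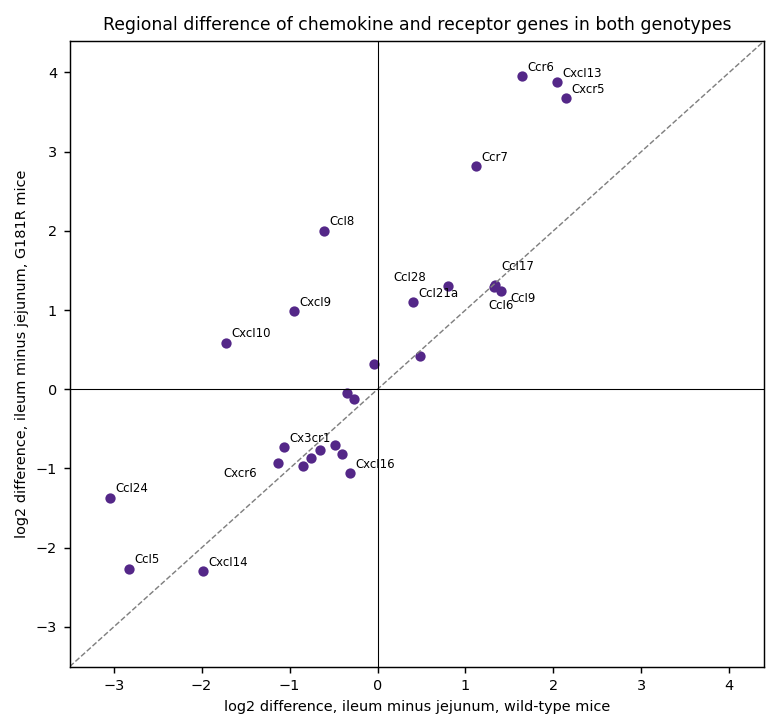
Log2 difference of ileum minus jejunum in DAO G181R mice (vertical axis) against the same in DAO wild-type mice (horizontal axis), 1 point for each of the 27 chemokine and receptor genes measured on all 4 arrays, with a dashed line where both are equal. Ccr6, Cxcl13, Cxcr5 and Ccr7 lie above the line at the upper right, Ccl6, Ccl9 and Ccl17 lie on or near it, and Ccl8, Cxcl9 and Cxcl10 lie at the upper left.

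By position, 39 of the 54 genes with a mapped probe lay within 1 Mb of another, in 10 clusters (by the mm9 coordinates of the probes). The neutrophil ligands Cxcl5, Cxcl3, Cxcl15, Cxcl1 and Cxcl2 lay together at chr5:91190490-91334593, where 3 genes had an ileal bound of at least 2-fold. Cxcl9, Cxcl10 and Cxcl11 lay at chr5:92752191-92788626, and 2 of the 3 were 2-fold higher in G181R ileum. The Ccl2, Ccl7, Ccl11, Ccl12, Ccl8 and Ccl1 cluster at chr11:81850650-81990510 had 3 measured genes in ileum, of which 2, Ccl2 and Ccl8, were 2-fold higher in G181R. The next cluster on that chromosome, with Ccl5, Ccl9, Ccl6, Ccl3 and Ccl4 at chr11:83339296-83478111, had 3 measured genes in ileum and none past 2-fold. Cxcl11 (0.02) and Ccl11 (0.20), also measured in the clusters with 2-fold differences, differed little in ileum. Over all genes, 2.01% of those measured were 2-fold higher in G181R ileum. Of all genes seen in G181R ileum only, 13.0% had a bound of 2-fold. In the clusters not named, no measured gene was 2-fold different in ileum and Ccl19 alone had such a bound. Whether neighbours differed together was not tested.

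Genes that act on chemokines or downstream of their receptors were read as well. Of 27 genes of scavenging receptors, arrestins, kinases and other signalling parts on the array, 26 were measured in ileum. None was 2-fold higher in G181R, against 2.01% of all genes, and 4 were lower, against 3.21%, with a median of -0.07. The G protein regulators Rgs2 and Rgs1 had signals of 1235 in G181R and 3210 in wild-type ileum (-1.30), and of 24.7 in G181R and 53.6 in wild-type ileum (-1.04). The scavenger of CCL19, CCL21 and CCL25, Ackr4, had 16.4 in G181R and 42.2 in wild-type ileum (-1.29), and the arrestin Arrb1 had 1276 in G181R and 2834 in wild-type ileum (-1.07). In jejunum none of 25 was 2-fold different, with Arrb1 at -0.52 and Grk6, a receptor kinase, at 0.50. Over all genes measured in jejunum, 0.763% were 2-fold higher in G181R and 0.749% lower.

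Known targets of NF-kB and of interleukin 17, which induce the neutrophil ligands, were also read. The list also held the cytokine genes Il17a and Il17f and the receptor genes Il17ra and Il17rc. Of its 22 genes, 14 were measured in ileum, with a median of 0.40. In G181R, 3 were 2-fold higher, against 2.01% of all genes, and none was 2-fold lower, against 3.21%. Lcn2, an antibacterial protein that binds iron carriers, had 93.7 in G181R and 34.9 in wild-type ileum (1.5). Nfkbiz, a nuclear partner of NF-kB, had 1067 in G181R and 510 in wild-type ileum (1.14), and Zc3h12a, an RNase that degrades cytokine transcripts, had 292 in G181R and 153 in wild-type ileum (1.01). S100a8 and S100a9 belong to this list too. Of the 14, 4 were lower in G181R, the NF-kB subunit gene Relb most, with 1452 in G181R and 2936 in wild-type ileum (-0.94). The receptor genes Il17ra (-0.23) and Il17rc (-0.03) were also among the 4. The cytokine genes Il17a and Il17f were seen on no array. In jejunum none of 15 was 2-fold different, with a median of 0.16 and Zc3h12a at 0.73. Over all genes there, 0.763% were 2-fold higher in G181R and 0.749% lower. Il6 was seen in wild-type jejunum only, at least 2.95-fold lower in G181R.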

How the data were processed

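Chemokine genes and gene lists were chosen with earlier results of these data known. The scanner files hold intensity values and, as other values, flags of 0 or 1 for signal well above background, saturation and outliers, which Agilent Feature Extraction 11.5.1.1 made per the file headers and the submitters' processing notes. Labelling started from 100 ng of RNA with Cy3 (1 colour) per the labels' protocols. The processed intensity was already background-subtracted by the authors' scanner software per the file headers, with no scaling between arrays. The deposited value table holds log2 values. Within 0.01, these equal the log2 processed intensity minus a constant for 99.96% of the probes that do not hold a fill value, but 2442 probes, 4 of them for chemokine genes, hold 1 fill value per array. Column medians were -3.13 in G181R ileum, -3.09 in wild-type ileum and -3.08 in G181R and wild-type jejunum. That table served only as an alternative.

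Each probe's spots, outliers left out, were averaged as log2 processed signal, and the 75th percentile of all non-control probes on that array was subtracted (175, 185, 160 and 156 in signal units in G181R ileum, wild-type ileum, G181R jejunum and wild-type jejunum). Of several probes, the one brightest across the arrays was used for the gene, and 18 of the 55 genes had several. Fold changes are on this scaled value. A gene was measured when well above background on both arrays and counted from 2-fold. Where 1 array only was, the bound is that array against the higher of the probe's own signal and the lowest signal well above background on the other (6.11 to 7.20 in ileum and 5.83 to 7.36 in jejunum). Of the 55 genes, 52 matched a RefSeq symbol by accession (GRCm38.p6 table), and the others, Ccl1 and Cxcl11 among them, keep the file's name. Values of 1 gene are not reported here. Coordinates of probes are mm9.

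Printed with values on all arrays are genes 2-fold different or with a 2-fold bound between genotypes and the other genes of their axis; of remaining axes, examples. Of the 2 other pathway lists, up to 4 genes are named for ileum and 2 for jejunum. Fabp6, Ly6g, Ltf, Csf3r, Mpo, Elane, Ngp, Mmp8, Ly6c2, Itgam, Lyz2, Cd163, Ms4a1, Madcam1, Epx, Siglecf, Ear1, Il5ra, Ifng, Gzma, Il17a, Il17f, Il17ra, Il17rc and Il6 were named after their values were seen. Alternatives were normexp background correction with an offset of 50 (limma 3.58.1 in R 4.3.3), quantile normalization, no filter on dim probes, the mean of a gene's probes, the deposited table without filled probes, and thresholds of 1.5-fold and 3-fold. The counting was tested on simulated data. Python 3.11.15 with pandas 2.3.3 was used.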

Additional observations from a re-analysis of the deposited data

Results flagged for a closer look

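For 7 of the 27 chemokine and receptor genes measured on all 4 arrays, the genotype difference was on opposite sides of 0 in ileum and jejunum and the 2 differences lay at least 2-fold apart. That is 25.9%, against 2.3% of the 20418 genes measured on all arrays. In each of the 7, G181R was higher in ileum and lower in jejunum. The ileal difference minus the jejunal one was 2.61 on the log2 scale for Ccl8, 2.31 for Cxcl10, 2.30 for Ccr6, 1.84 for Cxcl13, 1.70 for Ccr7, 1.67 for Ccl24 and 1.53 for Cxcr5. With the normexp background correction 3 of the 7 stayed at least 2-fold apart, Cxcl10 (1.80), Ccl24 (1.49) and Cxcl13 (1.01), while Ccr6 (0.95), Ccr7 (0.94), Cxcr5 (0.65) and Ccl8 (0.54) did not. With 1 array per group the difference between tissues was not tested. B cell markers had medians of 0.68 in ileum and -0.65 in jejunum, and their part in the Ccr6, Cxcl13, Cxcr5 and Ccr7 values was not tested.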

How the results depend on the processing

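Quantile normalization and the deposited table moved no count of 2-fold genes by over 1.5 times, and no named difference changed sign past 2-fold under any alternative. In ileum, the 6 genes higher in G181R became 2 with normexp, 15 with no filter, 11 at 1.5-fold and 3 at 3-fold, and the 0 lower became 1 with no filter, 1 with the mean of probes and 3 at 1.5-fold. In jejunum, the 0 higher became 2 with no filter and 2 at 1.5-fold, and the 1 lower became 0 with normexp, 2 with no filter, 7 at 1.5-fold and 0 at 3-fold. Of the genes higher in ileum than jejunum, the 12 in G181R mice became 7 at 3-fold, and the 7 in wild-type mice became 3 with normexp and 3 at 3-fold. Of the genes lower in ileum, the 5 in G181R mice became 3 with normexp, 11 with no filter, 8 with the mean of probes, 14 at 1.5-fold and 2 at 3-fold, and the 6 in wild-type mice became 17 with no filter and 11 at 1.5-fold. The counts without the filter include probes whose signal is not well above background. Probes of 1 gene disagreed most for Cxcl12, whose 2 probes lay 1.82 apart between regions in G181R mice. No paired analysis was possible because each group is 1 array of pooled RNA. Spot spread covers 1 hybridisation and neither mice nor pools.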
